A study of Mus musculus with 2 samples.

Results

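A set of 10 genes that write, copy, erase or fuel changes of cytosine methylation were examined for binding of Myc-Tagged Dlx5 in T-cell lymphoma. The set is a list of gene names, drawn up with earlier results of these data known but with no measured value in its rule, and holds Tet1, Tet2, Tet3, Dnmt1, Dnmt3a, Dnmt3b, Uhrf1, Idh1, Idh2 and Tdg, which are 10 of the 21887 protein-coding genes in the RefSeq table used. For each gene, every interval of the Myc-Tag ChIP that reached the gene body or the 10 kb on either side was taken, and where there was none the distance to the nearest summit was measured. Chromatin immunoprecipitation with sequencing (ChIP-seq) recovers DNA fragments attached to a protein. An interval is a stretch that the peak caller marked as enriched, and its summit is the position of highest signal.

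There were 2 libraries, 1 from the Myc-Tag ChIP and 1 of input DNA, and therefore no replicates. Both came from lymphoma of Lck-Dlx5 transgenic mice, in which the Lck promoter drives Dlx5, a homeobox transcription factor, in T-lineage cells. The Myc-Tag on the transgene product is what the antibody recognizes, and the input library gives the local signal without that antibody. The labels do not say whether both libraries came from the same tumor. The labels give the strain as C57BL/6 for the ChIP and C57BL/7 for the input, and the material as a primary tumor, whereas the methods name a single lymphoma cell line and an IgG control. The labels give no age, and no library from cells without the transgene was used here. The cell type cannot be checked in peak calls of a DNA-binding factor.

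Cytosine methylation at CpG dinucleotides is laid down anew by Dnmt3a and Dnmt3b and is copied after replication by Dnmt1, which Uhrf1 guides to newly replicated, hemimethylated DNA. Tet1, Tet2 and Tet3 oxidize methylcytosine, and Tdg cuts out the more oxidized bases so that repair can restore cytosine. The Tet enzymes consume 2-oxoglutarate, which Idh1 makes in the cytosol and Idh2 in mitochondria. TET2, DNMT3A and IDH2 are well known as genes mutated in human blood cancers, T-cell lymphomas among them.

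Myc-Tag intervals were present at 3 of the 10 genes, Dnmt1, Uhrf1 and Idh1, and each of the 3 had a summit within 1 kb of one of its own annotated start sites. By the same rule an interval was present at 4168 of the 21887 protein-coding genes (19%). No interval was called at the Tet genes, at Tdg, at the de novo methyltransferases or at Idh2. All 4 intervals at the 3 genes were modest, with summit heights of 13 to 19, where all 3477 Myc-Tag summits had a median of 16 and a range of 9 to 301. The height is the score deposited with each summit, a whole number whose scale is not stated.

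The upstream sequences of the start sites that these intervals reached, except the third Dnmt1 start, are shown first. Each is shown with a start site of the same gene or of another gene that no interval reached. Each run is the 250 bases before an annotated start on GRCm38.p6, the assembly known as mm10, from RefSeq, written in the direction of transcription. Capitals mark CpG dinucleotides, whose cytosines the Dnmt enzymes methylate and the Tet enzymes act on once methylated. The most upstream Dnmt1 start (chr9:20959889-20960138, minus strand) was not reached by an interval, whereas the run before the second Dnmt1 start (chr9:20952980-20953229, minus strand) lay wholly inside the Dnmt1 interval.

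Dnmt1 most upstream start: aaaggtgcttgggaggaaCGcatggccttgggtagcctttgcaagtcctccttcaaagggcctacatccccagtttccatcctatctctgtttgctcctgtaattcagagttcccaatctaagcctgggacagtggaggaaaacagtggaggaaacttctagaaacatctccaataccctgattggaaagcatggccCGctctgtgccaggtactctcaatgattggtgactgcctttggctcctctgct

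Dnmt1 second start: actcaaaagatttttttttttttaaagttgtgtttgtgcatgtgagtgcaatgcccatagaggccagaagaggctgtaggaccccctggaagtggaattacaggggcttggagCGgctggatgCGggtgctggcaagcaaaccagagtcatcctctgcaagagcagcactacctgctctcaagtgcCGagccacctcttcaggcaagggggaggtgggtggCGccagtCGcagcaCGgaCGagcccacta

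Of the 2 Dnmt1 runs shown, the run without an interval held 2 CpG and the run inside the interval held 7. The third Dnmt1 start lies 356 bp further downstream, and its sequence is not shown. Its 300-base window also lay wholly inside the interval and held 33 CpG, beside 12 in the window of the second start.

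For Uhrf1, the run before the upstream start (chr17:56303087-56303336, plus strand) lay outside the interval and the run before the second start (chr17:56304063-56304312, plus strand) lay inside it.

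Uhrf1 upstream start: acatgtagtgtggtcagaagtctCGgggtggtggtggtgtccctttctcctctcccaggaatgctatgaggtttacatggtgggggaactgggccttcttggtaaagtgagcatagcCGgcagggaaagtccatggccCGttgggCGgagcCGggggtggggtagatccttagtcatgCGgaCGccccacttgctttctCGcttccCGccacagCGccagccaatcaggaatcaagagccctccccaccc

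Uhrf1 second start: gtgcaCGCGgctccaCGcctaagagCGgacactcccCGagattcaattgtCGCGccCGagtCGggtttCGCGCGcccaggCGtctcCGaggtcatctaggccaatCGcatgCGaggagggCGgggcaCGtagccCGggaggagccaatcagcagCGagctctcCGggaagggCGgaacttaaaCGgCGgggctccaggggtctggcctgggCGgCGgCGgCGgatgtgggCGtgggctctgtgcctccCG

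These runs held 10 and 30 CpG, respectively. The Idh1 run (chr1:65186480-65186729, minus strand) had 197 of its 250 bases inside the Idh1 interval and held 18 CpG. The Tet2 run (chr3:133544391-133544640, minus strand) held 51 CpG and was reached by no interval.

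Idh1 upstream start: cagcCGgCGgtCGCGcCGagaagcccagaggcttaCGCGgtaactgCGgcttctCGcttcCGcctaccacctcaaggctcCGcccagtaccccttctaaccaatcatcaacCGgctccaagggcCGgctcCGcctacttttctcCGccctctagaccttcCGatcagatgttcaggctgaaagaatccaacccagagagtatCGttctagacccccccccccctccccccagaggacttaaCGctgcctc

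Tet2 start: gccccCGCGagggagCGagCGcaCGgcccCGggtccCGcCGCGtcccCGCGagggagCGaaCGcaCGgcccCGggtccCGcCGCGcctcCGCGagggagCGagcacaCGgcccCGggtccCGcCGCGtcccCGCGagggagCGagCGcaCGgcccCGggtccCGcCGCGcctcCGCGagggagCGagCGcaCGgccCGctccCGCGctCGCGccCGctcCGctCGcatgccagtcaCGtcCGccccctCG

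Of the runs shown, that of Tet2 held the most CpG, and the nearest summit to the gene was 153 kb away.

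Among the genes that maintain methylation, Dnmt1, the copying methyltransferase, had the tallest summit of the 10 genes. The gene lies on chromosome 9 from 20907206 to 20959888, and its interval spanned 20952196 to 20953311, a width of 1116 bp. The summit at 20952784 had a height of 19, a value exceeded by 773 of 3477 Myc-Tag summits (22.2%) and shared with 201 others. It lay 7104 bp inside the gene from the upstream end of the gene body. Dnmt1 has 3 annotated start sites, and the summit fell between the second, 195 bp upstream of it, and the third, 161 bp downstream of it. The windows of both of these starts, taken from 250 bases before to 50 after the start, lay wholly inside the interval. The interval overlapped no other gene, and the nearest other protein-coding gene, S1pr2, was 13168 bp from the summit. Within 50 kb of Dnmt1 there were 2 other summits, with heights of 14 in Angptl6 and 16 in Mrpl4. Dnmt1 is known to be transcribed from alternative starts, one of them used in oocytes, but the start sites carry no such name in the table used. Deposited summit positions are coarse, as 3329 of 3477 fell on a multiple of 16 bp.

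Uhrf1, the partner that brings Dnmt1 to replicated DNA, had 2 intervals. The gene spans 56303337 to 56323486 of chromosome 17. The inner interval, from 56303556 to 56304416 and 861 bp wide, had its summit at 56303968 with a height of 15, which 1739 of the 3477 summits exceeded. That summit lay between both annotated starts of Uhrf1, 631 bp downstream of the upstream one and 345 bp upstream of the second. The window of the second start lay wholly inside the interval, whereas the window of the upstream start ended 169 bp before it. The outer interval, from 56325376 to 56326472, was 1097 bp wide and began 1890 bp beyond the downstream end of Uhrf1. Its summit, with a height of 14, was inside the neighbouring gene Kdm4b, which encodes a histone lysine demethylase, and 222 bp from an end of that gene. Thus 1 of the 2 Uhrf1 intervals lay at a Uhrf1 start and the other was counted at Uhrf1 through the 10 kb allowance. An interval at some but not all starts, as at Dnmt1, Uhrf1 and Idh1, was found at 208 of the 405 protein-coding genes (51.4%) that have several annotated starts and an interval at any of them, and in 90 of these 208 (43.3%) the most upstream start was among those not reached, as at Dnmt1 and Uhrf1.

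Idh1, the cytosolic isocitrate dehydrogenase, had the lowest summit of the 3 genes. Idh1 lies on chromosome 1 from 65158616 to 65186479, and the interval from 65186084 to 65186676 was also the narrowest, at 593 bp. The summit at 65186368 had a height of 13, which 2464 summits (70.9%) exceeded and 364 others equalled. It was 111 bp downstream of the upstream Idh1 start and 7226 bp upstream of the second Idh1 start, which no interval reached. The interval also reached into Pikfyve, which encodes a lipid kinase and begins 272 bp from the summit, so the binding there cannot be assigned to Idh1 rather than to Pikfyve. The mitochondrial counterpart Idh2, on chromosome 7 from 80094845 to 80118608, had no interval, and the nearest summit was 174 kb away with a height of 12.

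**Figure D1:**
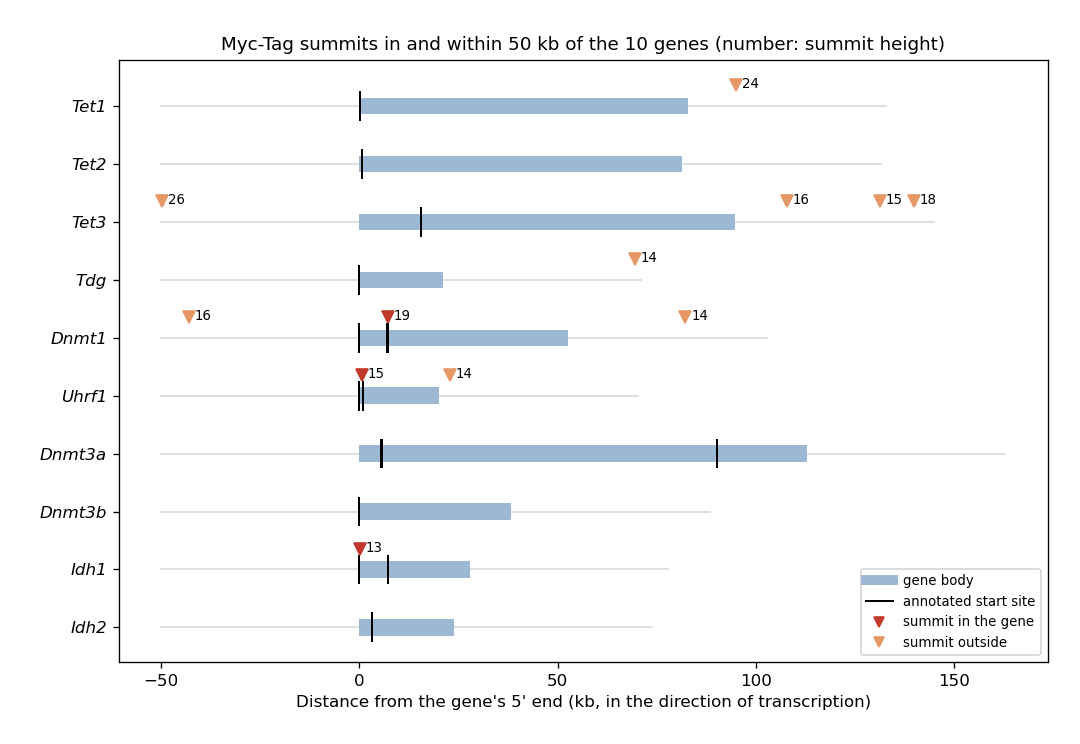
Each row is 1 gene, drawn from its 5′ end in the direction of transcription (horizontal axis, kb), with the gene body as a bar, annotated start sites as black ticks and Myc-Tag summits in the gene or within 50 kb of it as triangles carrying their height. The 3 summits inside gene bodies, at Dnmt1 (19), Uhrf1 (15) and Idh1 (13), sit at or between start sites, and the bodies of the other 7 genes hold none.

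All 4 heights lay in the bulk of the distribution. The median of the 4 was 14.5, beside 16 for all 3477 summits (interquartile range 13 to 19) and 15 for the 1804 summits within 1 kb of a protein-coding start. Widths of the 4 intervals ranged from 593 to 1116 bp, beside a median of 752 bp for all. None of the 4 intervals was among the 28 called in the input. The lowest Myc-Tag height of an interval called in the input was 21, and of the 2704 intervals up to the Dnmt1 height of 19 the input shared 0, so a missing input call does not set these 4 apart. With 1 library, the order Dnmt1, Uhrf1, Idh1 has no replicate check.

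**Figure D2:**
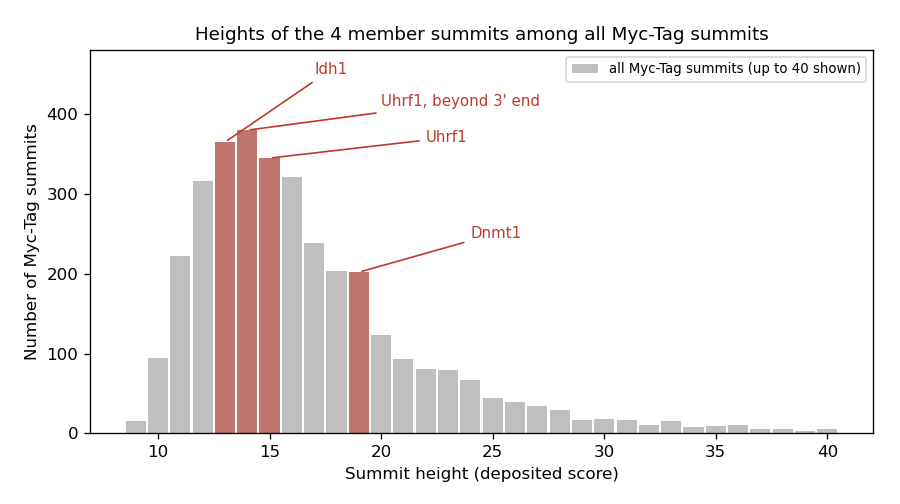
Number of Myc-Tag summits (vertical axis) at each summit height (horizontal axis, deposited score), with the heights of the 4 intervals at Dnmt1, Uhrf1 and Idh1 in red. The Dnmt1 summit at 19 lies above the median of 16, and the other 3, at 13 to 15, lie below it.

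The Tet dioxygenases had no interval. Tet1, on chromosome 10 from 62804570 to 62887469, and Tet3, on chromosome 6 from 83362373 to 83457208, came closest to being counted. The summit nearest to Tet1 was 12058 bp beyond its downstream end and had a height of 24, which only 330 of all Myc-Tag summits (9.49%) exceeded, but it lay 144 bp from a start site of Ccar1. The summit nearest to Tet3 was 12997 bp beyond its downstream end with a height of 16, inside Bola3 and 100 bp from a Bola3 start. Within 50 kb of Tet3 there were 4 summits, with heights of 15, 16, 18 and 26. They lay inside the bodies of Bola3, Mthfd2 (2 of them) and Dguok. Each was 196 bp or less from a protein-coding start site of a gene other than Tet3. Except at Bola3, the gene to which that start belongs was not determined. Tet2, on chromosome 3 from 133463677 to 133545136, was much further from any summit, at 153 kb, and 52.6% of protein-coding genes had a nearer one. That Tet2-side summit, with a height of 12, lay in Ppa2. These neighbouring genes were named after their positions had been seen.

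Tdg, the glycosylase that acts after the Tet enzymes, lies on chromosome 10 from 82629814 to 82650799. Its nearest summit was 48.5 kb beyond the downstream end, with a height of 14, 150 bp from a start of Hcfc2. Among the de novo methyltransferases, Dnmt3a, on chromosome 12 from 3801559 to 3914443, had its nearest summit 219 kb away at Adcy3, with a height of 14. Dnmt3b, on chromosome 2 from 153649411 to 153687730, was the most remote of the 10 genes, at 634 kb from a summit with a height of 12 in Pdrg1, and 77.7% of protein-coding genes had a nearer summit. For each of the 7 genes without an interval, the rule placed the nearest summit more than 10 kb away, and that summit lay at another gene. In 7 of 7 cases the summit was within 1 kb of a start site of the other gene. The distances ran from 64 bp at Ap3s2, near Idh2, to 405 bp at Adcy3. Of all Myc-Tag summits, 1804 of 3477 (51.9%) lay within 1 kb of a protein-coding start. The difference between these shares was not tested. A gene without an interval is one where none passed the calling threshold, and binding below it was not detectable.

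**Figure D3:**
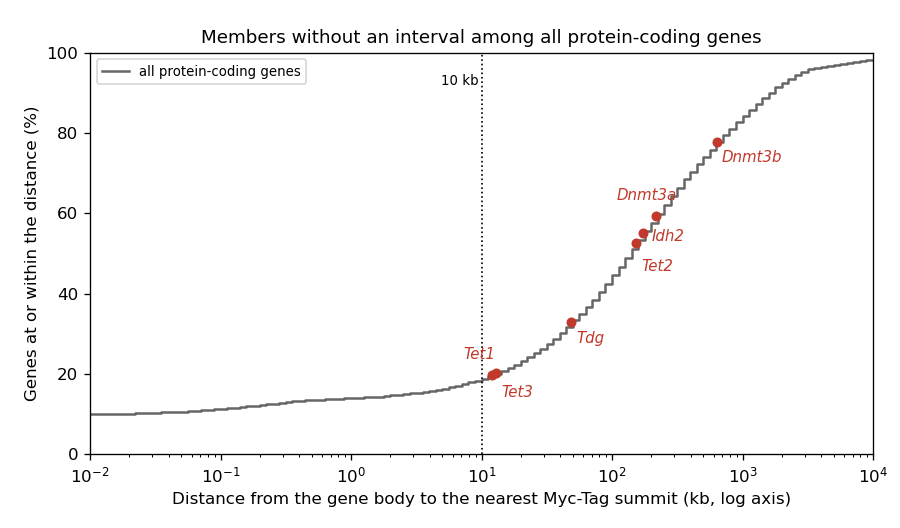
Share of all protein-coding genes (vertical axis, %) whose body has a Myc-Tag summit at or within the distance on the horizontal axis (kb, log axis), with the 7 genes without an interval as red points on the curve and the 10 kb limit dotted. Tet1 and Tet3 fall just outside the limit, Tet2, Idh2 and Dnmt3a lie near the middle of the distribution, and Dnmt3b lies furthest out.

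Several measures bear on how to read 3 genes of 10. All 10 genes were longer than the median protein-coding gene of 17169 bp, from 20150 bp for Uhrf1 to 112885 bp for Dnmt3a, and a longer gene offers more room for an interval. Measured by start sites instead, which does not depend on gene length, 3 of the 10 genes had a summit within 1 kb of a start, beside 11.4% of the 17492 protein-coding genes with a start in the table. That measure does depend on the number of annotated starts, which is 3 for Dnmt1, 2 for Uhrf1 and 2 for Idh1. Dnmt3a, also with 3 starts, had no such summit. Among all protein-coding genes with several starts, an interval overlapped a start window at 405 of 2761 (14.7%). By the ends of the gene body the count was 2 of 10, Uhrf1 and Idh1, beside 10.8% of all protein-coding genes, because the Dnmt1 summit lay at its internal starts. The share of protein-coding genes with an interval was similar on the chromosomes of the 10 genes, from 14.6% on chromosome 7 to 20.2% on chromosome 10. With 10 genes, these counts do not show that the set differs from the background.

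The start sites themselves differed in CpG number. The 10 genes have 16 annotated starts with a 300-base window, and intervals overlapped 4 of these windows, beside 2117 of all 21263 protein-coding windows (9.96%). Across all windows the share overlapped was 0.249% with fewer than 5 CpG and 21.4% with 30 or more. Of the 4 overlapped windows, the third Dnmt1 start and the second Uhrf1 start each held 33 CpG, the upstream Idh1 start held 23 and the second Dnmt1 start held 12. The 12 windows without an interval ranged from 2 CpG at the most upstream Dnmt1 start to 57 at Tet2. Both upstream Dnmt3a starts, with 46 and 47 CpG, and Dnmt3b, with 30, were likewise without one. The second Idh1 start equalled the upstream one at 23 CpG and had no interval. CpG number thus ran with overlap across all windows but did not separate these 16.

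**Figure D4:**
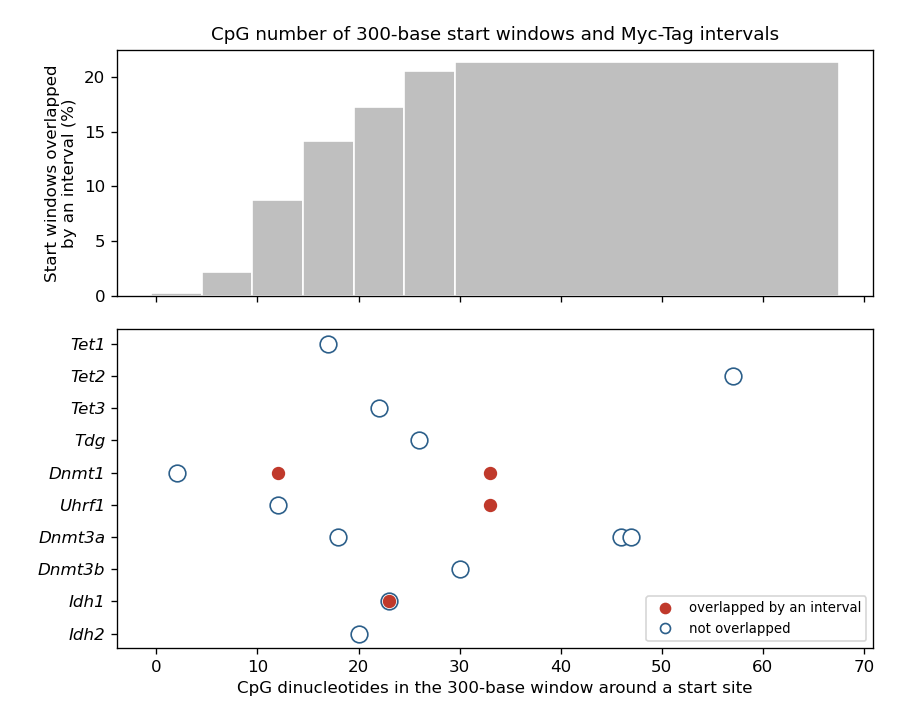
The upper panel gives the share of all protein-coding start windows that a Myc-Tag interval overlapped (%), by the number of CpG dinucleotides in the 300-base window, with all windows of 30 or more CpG in the last bar. The lower panel places each start window of the 10 genes at its CpG number, filled where an interval overlapped it. The filled points range from 12 to 33 CpG, and the open ones from 2 to 57, with both Idh1 starts drawn over each other at 23.

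The letters TAATT, the core recognized by Dlx homeodomains, were looked for on both strands of the same windows. They were present in 2 of the 16 windows, beside 23.5% of all windows. Both belonged to Dnmt1. The second start, inside the interval, had the letters as AATTA, their reverse complement, 155 bp upstream of the start and 350 bp from the summit. In the other, at the most upstream Dnmt1 start, TAATT began 150 bp upstream of the start and 7254 bp from the nearest summit. No TAATT was found in the window of the third Dnmt1 start, which also lay inside the interval, or in the windows of Uhrf1 or Idh1. Across all windows the letters were less common where an interval overlapped, in 296 of 2117 (14%), than where none did, in 4691 of 19146 (24.5%). The overlapped windows also held more G and C, with a median of 63.3% beside 55.7%, and TAATT has neither letter. Whether base composition accounts for the difference was not tested. The paper's own motif analysis of its ChIP-seq sites, not limited to start windows, reported TAATT as the motif of most of the Dlx5 consensus. A match is a description of the letters only, and the parts of the intervals outside these windows were not searched.

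Other genes of the pathway were taken from a list of 49 that includes methyl-CpG readers, cofactors of methylation, the methyl donor cycle, partners of the Tet enzymes, base excision repair and 2-oxoglutarate metabolism. An interval was present at 14 of the 49 (28.6%), beside the same 19% of all protein-coding genes, and 8 of the 49 (16.3%) had a summit within 1 kb of a gene end, beside 10.8%. In 3 of the 14, Dnmt3l and Neil1 among them, every counted interval lay nearest to another gene. Counting only summits nearest to the gene itself gave 11 of the 49 (22.4%), beside 2899 of all protein-coding genes (13.2%). Gene length was not matched, and these counts do not show that the list differs from the background. The 21 intervals had heights of 10 to 33 with a median of 14, and 0 of them were called in the input.

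The tallest summit of the list was at Ogt, which encodes the sugar transferase that binds Tet proteins. It had a height of 33, exceeded by 101 summits (2.90%), and lay 43 bp outside the gene, 83 bp upstream of a start. Cxxc5, a CpG-binding protein related to the partners of Tet2, had a summit of 12 located 269 bp inside a gene end. The remaining 2 of the 4 genes in that group, Cxxc4 and Wt1, had none.

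Of the cofactors of methylation, Uhrf2, the paralog of Uhrf1, had a summit of 11 at 47 bp downstream of a start. Pcna, the sliding clamp on which Dnmt1 and Uhrf1 meet replicated DNA, had 4 intervals, the most of any gene described here together with Mbd2. The Pcna summits at 36 bp and 540 bp from the gene end had heights of 14 and 16, the interval of the former also reaching into Cds2, and the other 2, with heights of 25 and 17, lay in Tmem230 and Cds2. Dnmt3l, the catalytically inactive partner of the de novo enzymes, was counted through a summit of 10 in Icosl, 5754 bp from the Dnmt3l gene end. Hells, Usp7, Cxxc1 and Dppa3 had no interval, so 3 of 7 cofactors had one.

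Both subunit genes of the enzyme that makes S-adenosylmethionine, the methyl donor, had an interval. The summit at Mat2a, the catalytic subunit, had a height of 14 and lay 412 bp upstream of the start, and the summit at Mat2b, the regulatory subunit, had a height of 17 and lay 202 bp downstream of a start, 2723 bp from the gene end. The other 3 genes of the methyl donor cycle had none.

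Of 8 methyl-CpG readers, Mbd2 alone had intervals. Its 4 summits had heights of 12, 12, 15 and 11, and 1 of them lay 255 bp from the gene end. Of 15 genes of base excision and deamination, 3 had an interval and none had a summit within 1 kb of a gene end. Neil1, a glycosylase that starts base excision repair, was counted through a summit of 16 in Commd4, which lay 9072 bp from the Neil1 gene end. Of 10 genes of 2-oxoglutarate metabolism, 3 had an interval. Sdhb, a subunit of succinate dehydrogenase, had a summit of 31, exceeded by 128 summits (3.68%), at 3465 bp inside the gene. Sdhc, another subunit, had a summit of 13 at 240 bp from the gene end. Idh3b, a subunit of the mitochondrial NAD-dependent isocitrate dehydrogenase, had summits of 13 at 499 bp inside a gene end, 495 bp from Nop56, and of 16 in the neighbouring Nop56. The Ogt and Sdhb summits were thus taller than that of Dnmt1, in a single library without a replicate check.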

How the data were processed

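Myc-Tag ChIP and input were measured in 1 library each. ChIP and sequencing on an Illumina GA II were done at Active Motif, peaks were called by MACS p-value, and the submitters' processing notes name BWA. Versions, thresholds and the control used for calling are not given in the sources used here. The authors deposited intervals and summits, and the deposited value of a summit is a score, its height. Read totals were not used here, so depth and the precision of a height are unknown. Of 5 deposited tracks, 4 were used, and the active regions were left out.

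The processing notes list mm9, but the positions fit mm10. Against genes of GRCm38.p6, 58.4% of summits lay within 1 kb of a protein-coding gene end, and 47.0% to 70.7% on each autosome. Interval starts were counted from 1 and summits were kept as deposited. Overlap of at least 1 bp was required. Start sites and windows came from the RefSeq promoter table, which matched 17492 protein-coding genes (79.9%) and all 10 members. Some gene bodies extended upstream of the first start listed there. That start was at 83441678 for Tet3 (upstream end 83457208), 3806980 for Dnmt3a (3801559) and 80115350 for Idh2 (80118608). Those 3 upstream ends had no window. Genome sequence of whole intervals was not used here.

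The members and lists were chosen with earlier results of these data known. All 10 members were named, then the genes of the pathway list with an interval, and other genes where a counted interval overlapped them or lay nearest. The genes beside the nearest summits of members without an interval fall outside this rule and were named after their values were seen. The same holds for Angptl6, Mrpl4, Mthfd2 and Dguok, named at other summits within 50 kb of Dnmt1 or Tet3. Some genes of the pathway list are counted but not reported by name here. No test was run, since there are no replicates. Scripts (Python 3.11.15, numpy 2.4.6, pandas 2.3.3, matplotlib 3.10.9) were tested on simulated data. Alternatives were other distances, heights, overlaps and letters.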

Additional observations from a re-analysis of the deposited data

How the results depend on the processing

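Of 36 comparisons with an alternative, 23 gave a value within 1.5 times that reported and 13 moved further. The 3 genes with an interval, Dnmt1, Uhrf1 and Idh1, were the same with 1 kb around the gene, with the gene body alone, with 50% of the interval or the summit required inside, after intervals shared with the input were dropped, and when the summit had to be nearest to the gene itself. Beside those 3 of 10, the share of all protein-coding genes was 14.2% with 1 kb, 13.4% with the gene body alone and 13.2% with the summit nearest to the gene. It was 18.8% with 50% of the interval inside, 18.8% with the summit inside and 19% without intervals shared with the input. The alternative of the summit nearest to the gene itself, and the use of start sites, were chosen after seeing the data. Fewer or more genes follow from the construction of the others. With 50 kb, 6 members had an interval, with Tet1, Tet3 and Tdg added, as did 23 genes of the pathway list and 7299 protein-coding genes (33.3%). With summit heights at or above the median of 16, the counts were 1 (Dnmt1), 7 and 2332 (10.7%), and with heights of at least 19 they were 1 (Dnmt1), 4 and 1325 (6.05%). The count of members with a summit near a gene end was 1 of 10 within 500 bp, beside 9.04% of all protein-coding genes. It was 0 with heights at or above the median, beside 5.68%, and 0 with heights of at least 19, beside 3.08%. The letters TAAT were in 5 of 16 member windows (31.2%), beside 51.8% of all windows, in place of 2 with TAATT.

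No paired analysis was possible because Myc-Tag and input have 1 library each, and none was left out as a replicate. TAATT in whole intervals was not run, since genome sequence was not used here. Depth is unknown and limits every statement on absence.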
